A study of Rattus norvegicus with 4 samples.

Results

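Cytosolic ribosomal protein genes encode the proteins of the 2 subunits of the cytoplasmic ribosome, which are named Rpl in the large subunit and Rps in the small one. They were found by symbol: every probe whose only gene symbol was Rpl or Rps followed by a number, with an optional a, x, l or y, or was Rplp0, Rplp1, Rplp2 or Rpsa. Kinases of the Rps6k family and mitochondrial ribosomal proteins were left out. The rule gave 86 probes for 56 genes, 38 of the large subunit and 18 of the small one, of 18166 genes with a single symbol on the array. Where a gene had several probes, as 18 did, the brightest one on average was used, so measured values chose the probe but not the gene. For 38 genes there was only 1 probe. A further 13 ribosomal protein genes, among them Rpl12, Rplp1, Rps18 and Rps23, were present only on probes that carry several symbols and were not counted.

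Ribosomal proteins are made in stoichiometric amounts from transcripts that are among the most plentiful of a growing cell. Their messenger RNAs begin with a cytosine followed by a run of pyrimidines, the terminal oligopyrimidine (TOP) tract, through which the kinase mTOR and the RNA-binding protein Larp1 set their translation and stability. Transcription of the genes, processing of ribosomal RNA and supply of mitochondrial ribosomes are separate routes, so these neighbouring groups were read beside the members.

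The study asked how primary rat astrocytes transfected with siRNA against SHP, the nuclear receptor encoded by Nr0b2, respond to the cytokine interferon-γ (IFN-γ) with or without a compound labelled only as GW. Astrocytes are glial cells of the brain, and these came from the cerebral cortex of Sprague-Dawley pups that were 1 day old. To reduce microglia and meningeal cells, cultures spent 2 days in serum-free MEM, and treatment lasted 3 h. Each of 4 cultures was measured on 1 array: SHP siRNA with IFN-γ and GW, control siRNA with IFN-γ and GW, control siRNA with IFN-γ, and control siRNA without treatment. All 4 cultures were therefore transfected, and neither GW without IFN-γ nor SHP siRNA without GW was analysed here. The control siRNA cultures are called below IFN-γ with GW, IFN-γ, and untreated.

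The deposited values were read as log2 signal, and each comparison below is a difference of log2 values between 2 arrays. With 1 array per condition there is no replicate check, no error and no test, and an effect of a condition and a peculiarity of 1 culture or array cannot be told apart. The number of arrays limits the precision. In a whole culture, fewer cells of a type and less RNA per cell cannot be told apart either. Nr0b2, the siRNA target, had 3.45 in the SHP siRNA culture, against 5.20 with IFN-γ and GW, 5.14 with IFN-γ and 5.33 in the untreated culture. Astrocyte markers were present, with Gfap between 12.03 and 12.11 on every array and 9 of 10 measured markers at or above 5.83, the median of the table. Microglial markers were present too: all 12 lay above that level on each array, none was at 0, and their mean was 8.80 with SHP siRNA, 8.63 with IFN-γ and GW, 9.09 with IFN-γ and 9.51 in the untreated culture. The untreated array was thus highest and the IFN-γ with GW array lowest, as for most ribosomal protein genes below, and the part of microglia in those differences was not tested.

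The TOP tract is the feature of these genes that bears on their transcript starts, so the bases around the RefSeq start were read first, for the 46 of 56 members listed in the RefSeq start table of rat assembly GRCr8. Shown here are the members with the lowest and the highest difference between IFN-γ with GW and IFN-γ among those listed. Each line holds 15 bases before the annotated start and 15 from it, written 5′ to 3′ on the strand of the gene. Capitals mark a tract that begins at the start itself, defined as C followed by at least 4 C or T bases.
Rps27: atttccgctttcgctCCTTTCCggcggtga
Rps3a: gagttgtacttccgcCCTTTTggctctcag
Rpl9: gacgaaggacgttctCTCTTTgccccatct
Rplp0: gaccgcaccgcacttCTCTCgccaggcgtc
Rpl41: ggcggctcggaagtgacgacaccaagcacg
Rps12: gcacagaagcccagcagagcgcttaaatac
Rpl26: ctcgtgtcaacttacagaaccggaagtcgc
Rps24: tgagcggtcctcttttcctcctttacagct

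In the first 4 of these a tract begins at the start itself, and in the last 4 none does. The annotated start of Rps24 nevertheless lies inside a run of C and T bases, with T as its first base. The Rps27 stretch lies at chr2:177964592-177964621 on the minus strand, that of Rps3a at chr2:173827028-173827057 on the minus strand, that of Rpl9 at chr14:43247575-43247604 on the plus strand and that of Rplp0 at chr12:46718376-46718405 on the minus strand. The stretch of Rpl41 lies at chr7:1563483-1563512 on the minus strand, that of Rps12 at chr1:23500060-23500089 on the plus strand, that of Rpl26 at chr10:54109677-54109706 on the plus strand and that of Rps24 at chr16:96502-96531 on the plus strand. The bases from the start onward are the first exon of the annotated transcript. The 8 were picked by their measured values, so their split is a description. Other probes that list Rpl41 and Rps24 differed by -0.50 and -0.00089 with GW, and Rpl26 lay below the table median on every array. Probes under the copy symbols Rps12l2 and Rps12l3, brighter than that of Rps12, differed by -0.22 and -0.39. Of the first 4, Rps3a had values below that median too. Over all 46 listed members, 16 (34.8%) carried a tract at the annotated start, against 881 of 33469 starts in the table (2.63%). A tract beginning within 10 bases of the start on either side was found in 31 members (67.4%), against 28.9% of all starts. The letters CCGGAAG, a core that ETS family factors bind, occurred on either strand of the 300 bases from 250 before to 50 after the start in 13 members (28.3%), against 8.75% of all starts. An annotated start can differ from the one these cells use, and a start with no match says nothing about the transcripts measured.

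Across the 56 genes the array of IFN-γ with GW was the lowest of the 4 and the untreated array the highest. The IFN-γ with GW array held the lowest value for 43 of 56 members, 28 of 38 in the large subunit and 15 of 18 in the small one, against 32.0% of the 11790 genes past the filter. The untreated array held the highest value for 48 of 56 members, 32 of 38 and 16 of 18, against 39.1% of all genes. A gene passed the filter if 1 array or more reached the table median. Of the members 48 passed and 8 did not (Rpl26, Rpl27a, Rpl28, Rpl37a, Rpl3l, Rpl5, Rps6 and Rps9), and all 56 are counted here. For Rpl37a and Rps24 a brighter probe exists that the rule left out: one lists Rpl37a under 2 entries and had 11.65 with SHP siRNA, 11.54 with IFN-γ and GW, 11.72 with IFN-γ and 11.92 untreated, and the other lists Rps24 beside a pseudogene and had 11.15, 11.04, 11.04 and 11.19 in the same cultures. The values of both genes below are therefore those of their dimmer probes. Among the 906 other genes whose mean log2 signal was at least 10, called bright genes below, the same shares were 39.8% and 47.8%.

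**Figure D1:**
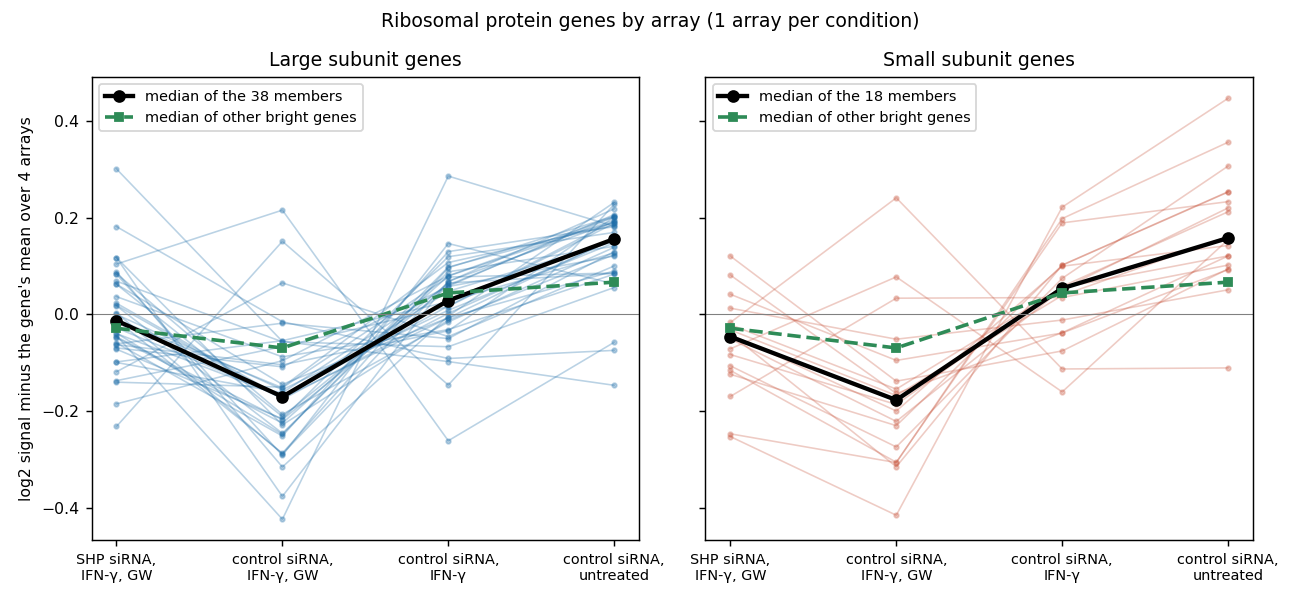
Log2 signal of each ribosomal protein gene minus its own mean over the 4 arrays (vertical axis), by culture (horizontal axis), for 38 large subunit genes (left) and 18 small subunit genes (right). Thin lines are genes, the black line is their median and the dashed green line the median of 906 other bright genes. The large subunit median stood at -0.01 with SHP siRNA, -0.17 with IFN-γ and GW, 0.03 with IFN-γ and 0.16 in the untreated culture.

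The exceptions were few. Rpl10, Rpl18, Rpl19, Rpl23a, Rpl26, Rpl29 and Rps6 were lowest in the SHP siRNA culture, and Rpl3l, Rpl41, Rpl7a, Rps12 and Rps24 in the IFN-γ culture. Rpl27a was lowest in the untreated culture. Of these, Rpl3l is the muscle paralogue of Rpl3.

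The first comparison asks what IFN-γ alone did. With IFN-γ most members lay lower by a small and even amount: the median difference to the untreated culture was -0.12 over the large subunit and -0.15 over the small one, folds of 1.09 and 1.11. Below 0 were 53 of 56 members, against 59.8% of all genes, and above 0 were 3, against 40.1%. At least 1.2-fold lower were 2 members, Rpl26 and Rps24, against 9.64% of all genes, and none was at least 1.2-fold higher, against 8.4%. Of the 2, Rpl26 did not pass the filter. No member reached 2-fold in either direction, against 1.61% of all genes higher and 0.288% lower. The spread among members was narrow, with an interquartile range of 0.093 over the 56, against 0.143 over other bright genes. All genes past the filter and other bright genes each had a median of -0.04, so the large subunit lay 0.08 and the small one 0.11 below other bright genes.

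Rpl26, which lies at the exit of the peptide tunnel, had 4.83 with IFN-γ, against 5.20 untreated, a difference of -0.37 at values below the table median. Rps24, a small subunit protein mutated in Diamond-Blackfan anaemia, had 6.96 with IFN-γ, against 7.27 untreated, a difference of -0.31. The brighter probe that Rps24 shares with a pseudogene differed by -0.15. Rps3, which sits at the mRNA entry channel, differed by -0.23. The other low members were Rps27 at -0.22, Rpl14 at -0.24, Rpl37a at -0.23, Rpl41 at -0.20 and Rpsa at -0.17. The 3 members above 0 were Rpl15 at 0.10, Rplp0 at 0.08 and Rpl27a, below the table median on every array, at 0.05. In the small subunit the highest were Rps12 at -0.0022, Rps14 at -0.04, Rps3a at -0.04 and Rps19 at -0.06, and in the large one Rpl13a came after those 3, at -0.0083. Probes under the copy symbols Rpl27al3 and Rpl27al7, brighter than that of Rpl27a, differed by -0.04 and -0.03.

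Rpl13a has a role of its own under IFN-γ. In human monocytes it is phosphorylated by Dapk3 downstream of Dapk1, leaves the ribosome and joins Eprs1, Syncrip and Gapdh in the GAIT complex, which blocks translation of inflammatory transcripts. Its log2 signal was 11.92 with SHP siRNA, 11.78 with IFN-γ and GW, 12.005 with IFN-γ and 12.013 in the untreated culture. Its difference between IFN-γ and untreated was -0.0083. Of the partners, with IFN-γ minus untreated, Dapk3 differed by -0.14, Dapk1 by -0.08, Eprs1 by -0.04 and Syncrip by -0.03. With GW added, Syncrip differed by 0.27 and Rpl13a by -0.23.

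The second comparison asks what GW added to IFN-γ. The members lay lower here too: the median difference of IFN-γ with GW minus IFN-γ was -0.20 over the large subunit and -0.23 over the small one, folds of 1.15 and 1.17. Below 0 were 47 of 56 members, against 57.8% of all genes, and above 0 were 9, against 42.1%. At least 1.2-fold lower were 21, 13 large and 8 small, against 22.5% of all genes, and 3 were at least 1.2-fold higher, against 13.0%. Among the 48 members past the filter these counts were 19 and 2. When every array was shifted to the same median over the filtered genes, the members split into 12 lower and 4 higher and all genes into 15.5% lower and 20.0% higher. No member reached 2-fold, against 0.95% of all genes lower and 0.958% higher. The interquartile range over the 56 was 0.264, against 0.093 for IFN-γ, and that of other bright genes 0.30 against 0.143. The subunit medians depended on the scaling: they were -0.10 and -0.13 under cyclic loess and -0.12 and -0.14 after the shift to a common median.

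The array of IFN-γ with GW was also lower for other bright genes, so level has to be read beside the difference. The median over all genes past the filter was -0.05 and over other bright genes -0.12, which left the large subunit 0.08 and the small one 0.10 below other bright genes. Of the 31 bright members 28 lay below 0, against 632 of 906 other bright genes. At least 1.2-fold lower were 9 of the 31, against 228 of the 906, and 1 was higher, against 78. In bins of mean signal, the median of other genes was 0.09 between 5 and 6, -0.06 between 7 and 8, -0.11 between 10 and 11 and -0.14 between 11 and 12. The 16 members between 10 and 11 had a median of -0.18 and the 12 between 11 and 12 one of -0.19. What part signal level has in the difference was not tested.

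**Figure D2:**
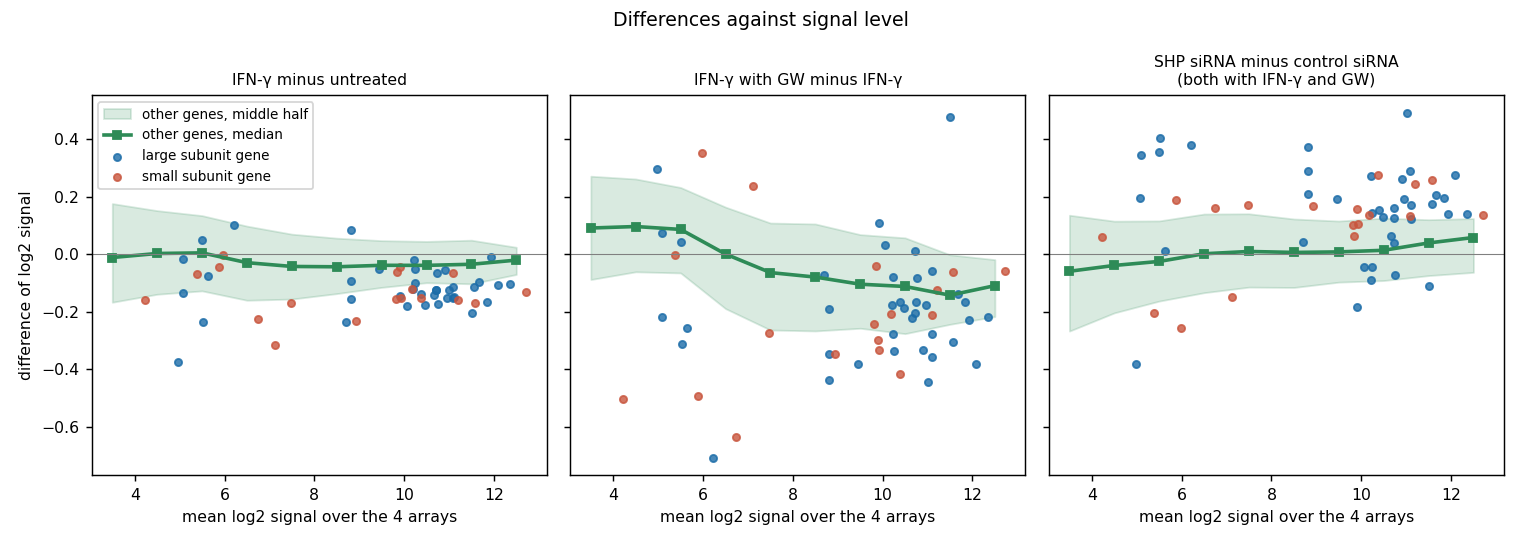
Difference of log2 signal (vertical axis) against mean log2 signal over the 4 arrays (horizontal axis) for the 3 main comparisons, with 1 point per ribosomal protein gene. The green line and band are the median and the interquartile range of other genes in bins 1 unit wide, whose median with GW falls with level to -0.14 between 11 and 12.

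In the large subunit the lowest with GW were Rpl15, Rpl9, Rplp0 and Rpl34. Rpl15, a core protein of the large subunit, had 5.79 with IFN-γ and GW, against 6.50 with IFN-γ, a difference of -0.71. The first of these values lay below the table median. Brighter probes under the copy symbols Rpl15l1 and Rpl15l3 differed by -0.23 and -0.24, and whether they read Rpl15 was not tested. Rpl9, near the factor-binding site, had 10.63 with IFN-γ and GW, against 11.08 with IFN-γ, a difference of -0.44. Rpl34 had 11.80 with IFN-γ and GW, against 12.18 with IFN-γ, a difference of -0.38. For all 3 the IFN-γ with GW array was the lowest of the 4.

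The members of the stalk and 5S lists with a probe of their own held to the same side. Rplp0 forms the base of the stalk that recruits elongation factors, and it had 8.89 with SHP siRNA, 8.52 with IFN-γ and GW, 8.96 with IFN-γ and 8.87 untreated. Its difference with GW was -0.44, while Rplp2, an acidic protein that hangs on that base, differed by -0.06. Rpl5 and Rpl11 carry 5S ribosomal RNA and, like Rpl23, bind the p53 regulator Mdm2 when free of the ribosome. Rpl11 differed by -0.38, Rpl23 by -0.22 and Rpl5, at values below the table median, by -0.22. These 5 are all the members of their lists with a probe of their own. Of the other stalk genes, Rplp1 differed by 0.32 on its shared probe. The shared probes of Rpl12 lay between -0.13 and 0.41.

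Proteins around the exit of the peptide tunnel, where nascent chains leave, were divided. With GW, Rpl17 differed by -0.30, Rpl35 by -0.28 and Rpl39 by -0.28. Rpl23a differed by -0.08, Rpl19 by 0.03 and Rpl26 by 0.30. So 3 of 6 measured proteins of this region were at least 1.2-fold lower, against 22.5% of all genes, and 1 was higher, against 13.0%. That one, Rpl26, lay below the table median on every array.

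In the small subunit the lowest was Rps27, a zinc-finger protein. It had 6.49 with SHP siRNA, 6.33 with IFN-γ and GW, 6.96 with IFN-γ and 7.19 in the untreated culture. Its difference with GW was -0.64, and between IFN-γ with GW and untreated -0.86, the lowest of the 56 there. Rps21 had 10.07 with IFN-γ and GW, against 10.49 with IFN-γ, a difference of -0.42. Rps3a, which lies by the mRNA exit side of the platform, had 5.57 with IFN-γ and GW, against 6.07 with IFN-γ, a difference of -0.49. The first of these values lay below the table median.

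Around the mRNA channel, all measured proteins lay below 0 with GW, as did 16 of all 18 small subunit members, against 57.8% of all genes. At the entry and decoding side Rps9 differed by -0.50, at values below the table median, Rps3 by -0.35, Rps15 by -0.33 and Rps2 by -0.13. At the exit side Rps14 differed by -0.30, Rps28 by -0.24 and Rpsa, which is also known as the laminin receptor precursor, by -0.06. Rps6, the substrate of S6 kinase, differed by -0.0014 at values below the table median. Rps29 had 12.62 with IFN-γ and GW, against 12.68 with IFN-γ. Rps19, the gene most often mutated in Diamond-Blackfan anaemia, differed by -0.04.

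The members above 0 with GW were led by Rpl41, the shortest ribosomal protein. It had 11.61 with SHP siRNA, 11.72 with IFN-γ and GW, 11.25 with IFN-γ and 11.45 untreated, a difference of 0.48 with GW. Its other probe differed by -0.50, so the direction of Rpl41 rests on the choice of probe. Rps12, which had 6.22 with IFN-γ and GW, against 5.86 with IFN-γ, differed by 0.35. Its probe lay close to the filter level of 5.83. Brighter probes under the copy symbols Rps12l2 and Rps12l3 differed by -0.22 and -0.39, and whether they read Rps12 was not tested. Rpl26 differed by 0.30 and Rps24 by 0.24, while the brighter shared probe of Rps24 differed by -0.00089. Rpl10, a protein that joins late in the assembly of the large subunit, differed by 0.11 and Rpl3l by 0.08. Rpl10 had a second probe that differed by 0.38.

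**Figure D3:**
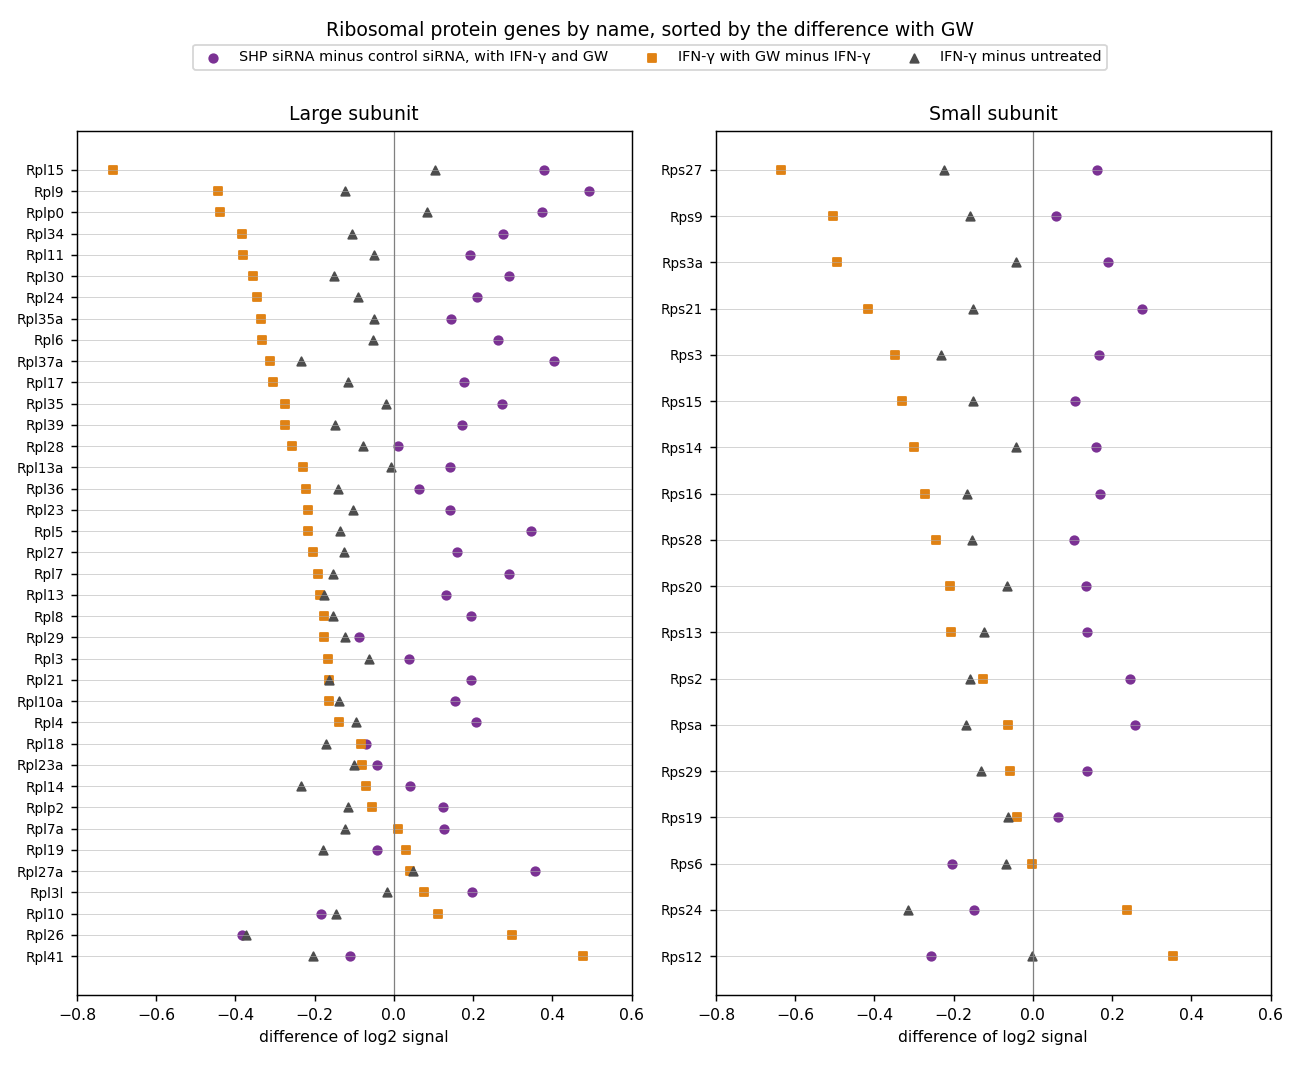
Difference of log2 signal (horizontal axis) for each ribosomal protein gene (vertical axis), large subunit left and small subunit right, sorted by the difference with GW. Purple circles are SHP siRNA minus control siRNA with IFN-γ and GW, orange squares IFN-γ with GW minus IFN-γ and grey triangles IFN-γ minus untreated. Rpl15 at -0.71 and Rps27 at -0.64 are the lowest squares, and Rpl41 at 0.48 is the highest.

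Set beside their starts, the 16 listed members with a tract at the annotated start had a median difference with GW of -0.30, within a range of -0.64 to 0.11. The 30 listed members without one had a median of -0.17, within a range of -0.42 to 0.48. For IFN-γ minus untreated the medians were -0.12 and -0.12, and for SHP siRNA minus control siRNA 0.16 and 0.14. The ranges overlap in each comparison, and the highest member with a tract at the start was Rpl10. The 30 include members whose tract begins within 10 bases of the annotated start, such as Rpl21, Rpl23, Rps21 and Rps24. Their highest value with GW, 0.48, is that of Rpl41, whose other probe differed by -0.50.

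The third comparison asks what SHP siRNA did when IFN-γ and GW were both present. Most members were higher with SHP siRNA than with control siRNA: the median difference was 0.17 over the large subunit and 0.14 over the small one, a fold of 1.12 in the large one. Above 0 were 46 of 56 members, against 51.5% of all genes, and below 0 were 10, against 48.4%. At least 1.2-fold higher were 12, 11 large and 1 small, against 9.76% of all genes, and 1 was at least 1.2-fold lower, Rpl26, against 9.15%. Among the 48 members past the filter these counts were 9 and 0. The 12 became 7 under cyclic loess and 8 after every array was shifted to the same median over bright genes. No member reached 2-fold, against 0.144% of all genes higher and 0.263% lower. The medians of all genes past the filter and of other bright genes were 0.0077 and 0.02, so the large subunit lay 0.14 and the small one 0.11 above other bright genes. This comparison shares the IFN-γ with GW array with the one before it, where that array enters with the opposite sign. The 2 sets of differences are therefore tied through 1 measurement, and no relation between them is given.

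**Figure D4:**
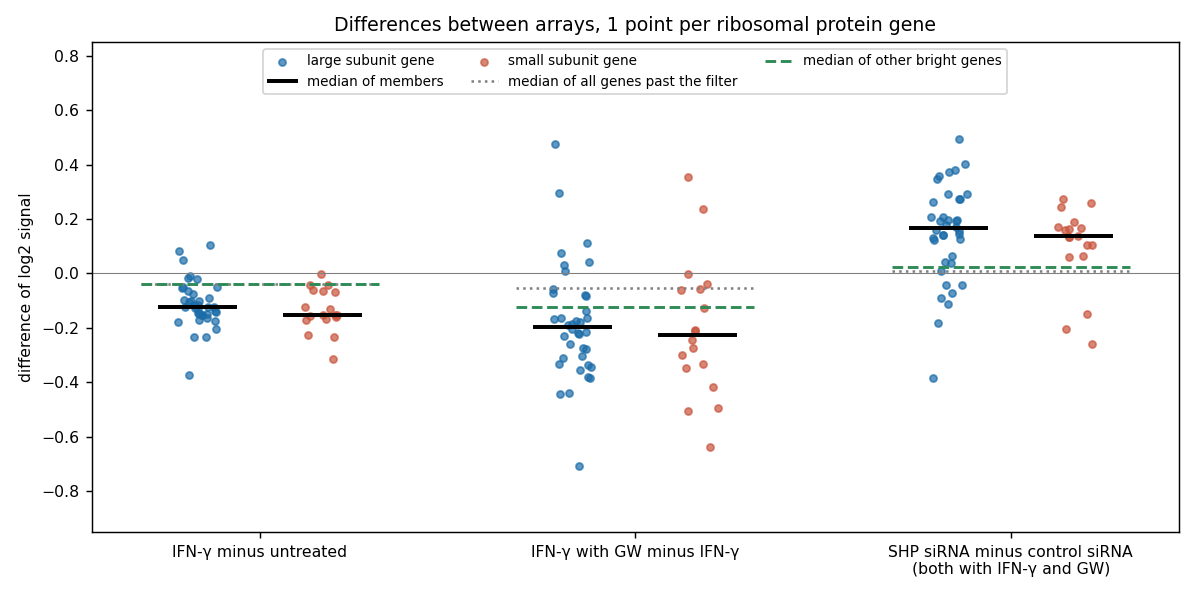
Difference of log2 signal (vertical axis) for IFN-γ minus untreated, IFN-γ with GW minus IFN-γ, and SHP siRNA minus control siRNA with IFN-γ and GW (horizontal axis), 1 point per ribosomal protein gene. Bars are medians of members, -0.12 and -0.15, -0.20 and -0.23, and 0.17 and 0.14 for the large and small subunit in that order. Dotted and dashed lines are medians of all genes past the filter and of other bright genes.

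Rpl9 had the highest difference, with 11.13 with SHP siRNA, against 10.63 with control siRNA, or 0.49. Its 3 probes ranged between 0.35 and 0.51. Rpl37a at 0.40, below the table median in level, Rpl15 at 0.38, Rplp0 at 0.37, Rpl27a at 0.36 and Rpl5 at 0.35 came next, while the brighter probe of Rpl37a differed by 0.11. Rpl27a too lay below the table median on every array. Brighter probes under the copy symbols Rpl27al3 and Rpl27al7 differed by 0.18 and 0.30, and whether they read Rpl27a was not tested. Rpl15 had 6.17 with SHP siRNA, against 5.79 with control siRNA, the latter below the table median. Rplp2 differed by 0.12, Rpl11 by 0.19 and Rpl23 by 0.14. All 5 members of the stalk and 5S lists lay above 0, as did 46 of all 56 members, against 51.5% of all genes. Of the 5, Rpl5 was read below the table median, and the brighter probe under the copy symbol Rpl5l1 differed by -0.05.

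At the tunnel exit Rpl35 differed by 0.27, Rpl17 by 0.18 and Rpl39 by 0.17, while Rpl19 and Rpl23a each differed by -0.04 and Rpl26 by -0.38. In the small subunit Rps21 was highest at 0.27, with 10.34 with SHP siRNA, against 10.07 with control siRNA. Rpsa had 11.69 with SHP siRNA, against 11.43 with control siRNA, a difference of 0.26. Rps2 differed by 0.24 and Rps3a, with both values below the table median, by 0.19. The remaining proteins of the mRNA channel, Rps3, Rps14, Rps15, Rps28 and Rps9, lay between 0.06 and 0.17.

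The members that were lower with SHP siRNA were Rpl26 at -0.38, Rps12 at -0.26, Rps6 at -0.20, Rpl10 at -0.18, Rps24 at -0.15 and Rpl41 at -0.11, and 4 large subunit members at -0.04 to -0.09, Rpl29, Rpl18, Rpl23a and Rpl19. Rps12 had 5.96 with SHP siRNA, against 6.22 with control siRNA, while the brighter Rps12l2 and Rps12l3 probes differed by 0.03 and 0.14. Rpl41 again depends on the probe, since its other probe differed by 0.36. For Rpl10 both probes lay below 0, at -0.18 and -0.27. The brighter shared probe of Rps24 lay above 0, at 0.11, as did the other probe of Rpl23a, at 0.21.

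Beside these differences, the microglial list differed between arrays as well. Of its 12 genes 11 lay below 0 for IFN-γ minus untreated, with a median of -0.35, and 11 for IFN-γ with GW minus IFN-γ, with a median of -0.47. For SHP siRNA minus control siRNA 10 lay above 0, with a median of 0.16. The 4 meningeal and fibroblast markers past the filter had a median of 0.60 in the last comparison, and the astrocyte markers, 9 past the filter, medians of 0.06, -0.23 and 0.19 in the 3 comparisons. The part of these cell types in the ribosomal protein differences was not tested.

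The other differences among the arrays span 2 steps of treatment. For IFN-γ with GW minus untreated, 52 of 56 members lay below 0, against 60.3% of all genes, and 4 above 0, against 39.7%. The medians were -0.33 over the large subunit and -0.34 over the small one, against -0.13 over other bright genes. At least 1.2-fold lower were 37 of 56 members, against 27.5% of all genes, and 2 were at least 1.2-fold higher, Rpl41 and Rps12, against 14.0%. Among the 48 members past the filter these counts were 33 and 2. The other probe of Rpl41 differed by -0.53 there, and the brighter Rps12l2 and Rps12l3 probes by -0.30 and -0.59. None reached 2-fold, against 0.84% of all genes lower and 1.65% higher. For SHP siRNA with IFN-γ and GW minus IFN-γ the medians were -0.06 and -0.12, against -0.08 over other bright genes. For the same culture minus untreated they were -0.18 and -0.25, against -0.10.

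Differences that use separate arrays can be set side by side gene by gene, as a description across genes that are not independent replicates. Across the 56 members, IFN-γ with GW minus untreated and SHP siRNA with IFN-γ and GW minus IFN-γ had a Pearson correlation of 0.68 and a Spearman correlation of 0.55. Over all genes past the filter these were 0.54 and 0.55. IFN-γ with GW minus IFN-γ and SHP siRNA with IFN-γ and GW minus untreated gave 0.46 and 0.40 across members, against 0.40 and 0.47 over all genes. IFN-γ minus untreated and SHP siRNA minus control siRNA gave 0.36 and 0.20 across members, against 0.15 and 0.08 over all genes. Among the 31 bright members the pairs gave, in this order, 0.61 and 0.43, 0.54 and 0.40, and 0.20 and 0.10. Over other bright genes they gave 0.62 and 0.61, 0.41 and 0.52, and 0.24 and 0.09. All 4 arrays enter each pair once, and the genes of a pair share those arrays.

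Repeat probes give the one internal measure of how far a member's difference can be read. In the 18 genes with several probes, the gap between the highest and the lowest probe had a median of 0.06 for IFN-γ minus untreated, 0.09 for IFN-γ with GW minus IFN-γ and 0.06 for SHP siRNA minus control siRNA. The widest gaps were 0.29 in Rpl10, 0.98 in Rpl41 and 0.52 in Rpl21. Probes of 1 gene lay on opposite sides of 0 in 4, 1 and 2 genes, in the same order of comparisons. The gap covers probe and annotation error on the same arrays and not the spread between cultures.

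Mitochondrial ribosomal proteins, which build the separate ribosome of that organelle, had a different order of arrays. Of 71 on the array, 70 passed the filter. Their median differences were -0.13 for IFN-γ minus untreated, -0.30 for IFN-γ with GW minus IFN-γ and -0.04 for SHP siRNA minus control siRNA. With GW 41 of 70 were at least 1.2-fold lower, against 22.5% of all genes, and 1 was higher, Mrps6 at 0.43, against 13.0%. The lowest were Mrps17 at -0.74, Mrps21l at -0.72, Mrps21 at -0.65 and Mrps33 at -0.64. With SHP siRNA 27 of 70 lay above 0 and 43 below, none was at least 1.2-fold higher, against 9.76% of all genes, and 7 were lower, against 9.15%, led by Mrps18a at -0.44, Mrpl2 at -0.43, Mrpl27 at -0.38 and Mrpl19 at -0.32. The SHP siRNA array held the lowest value for 41 of 70, against 27.7% of all genes, and the IFN-γ with GW array for 27, against 32.0%. Among the 48 cytosolic members past the same filter these counts were 5 and 39. Whether the 2 families differ was not tested, since each condition had 1 array.

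Genes of translation and ribosome assembly lay nearer to 0 than the members with GW and with SHP siRNA, and only slightly so with IFN-γ. Below 0 with IFN-γ were all 12 elongation factors and other TOP transcripts and 24 of 27 initiation factors, against 59.8% of all genes. Of ribosome biogenesis genes 28 of 36 lay below 0 there. The list of elongation factors and other TOP transcripts had 12 genes past the filter, with medians of -0.10 for IFN-γ minus untreated, -0.06 for IFN-γ with GW minus IFN-γ and 0.05 for SHP siRNA minus control siRNA. In it Eef1g differed by -0.18 with IFN-γ, Eif3f by 0.19 with GW, and Nap1l1 by 0.25 and Eef2 by 0.13 with SHP siRNA. Fau, which encodes a small subunit protein fused to a ubiquitin-like one, had 7.61 with SHP siRNA, 8.15 with IFN-γ and GW, 8.42 with IFN-γ and 8.56 untreated. It was the lowest of that list with SHP siRNA, at -0.54, while Rack1, a scaffold protein of the small subunit, differed by 0.13. The 27 initiation factors had medians of -0.09, -0.09 and -0.0050 in the 3 comparisons, with Eif3k at -0.25 with IFN-γ, Eif3m at -0.45 and Eif2b4 at -0.35 with GW, and Eif4a2 at 0.30 and Eif2b2 at -0.29 with SHP siRNA.

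Ribosome biogenesis genes, which process ribosomal RNA and assemble subunits in the nucleolus, had medians of -0.11, -0.0056 and -0.01 over 36 genes. Myc, the transcription factor that drives many of them, was itself counted among the 36. It had 9.84 with SHP siRNA, 10.15 with IFN-γ and GW, 8.80 with IFN-γ and 8.31 untreated. Its differences were 0.49 with IFN-γ, 1.35 with GW and -0.32 with SHP siRNA. Gnl3, the nucleolar GTPase nucleostemin, differed by 0.57 with GW, while Nhp2 and Wdr12 differed by -0.41 and -0.36. With IFN-γ Rrs1 differed by -0.35, and with SHP siRNA Rrp1b by 0.35 and Polr1a, the largest subunit of RNA polymerase I, by -0.30. Of the 36, 4 were at least 1.2-fold higher with GW, Myc among them, against 13.0% of all genes, and 2 were lower, against 22.5%.

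The mTOR list had medians of -0.14, -0.06 and 0.05 over 15 genes. Sesn1, an inhibitor of mTOR complex 1 in amino acid shortage, had 7.16 with IFN-γ, against 8.08 untreated, a difference of -0.92. Of the 4E-binding proteins, which mTOR inhibits, Eif4ebp2 differed by -0.39 and Eif4ebp1 by -0.32 with IFN-γ. With GW Eif4ebp2 differed by -0.29 and Tsc1 by -0.25. With SHP siRNA Ddit4, another mTOR inhibitor, differed by 0.38 and Rps6kb1, which encodes the S6 kinase, by 0.28. Larp1 lay between -0.06 and -0.01 in the 3 comparisons.

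**Figure D5:**
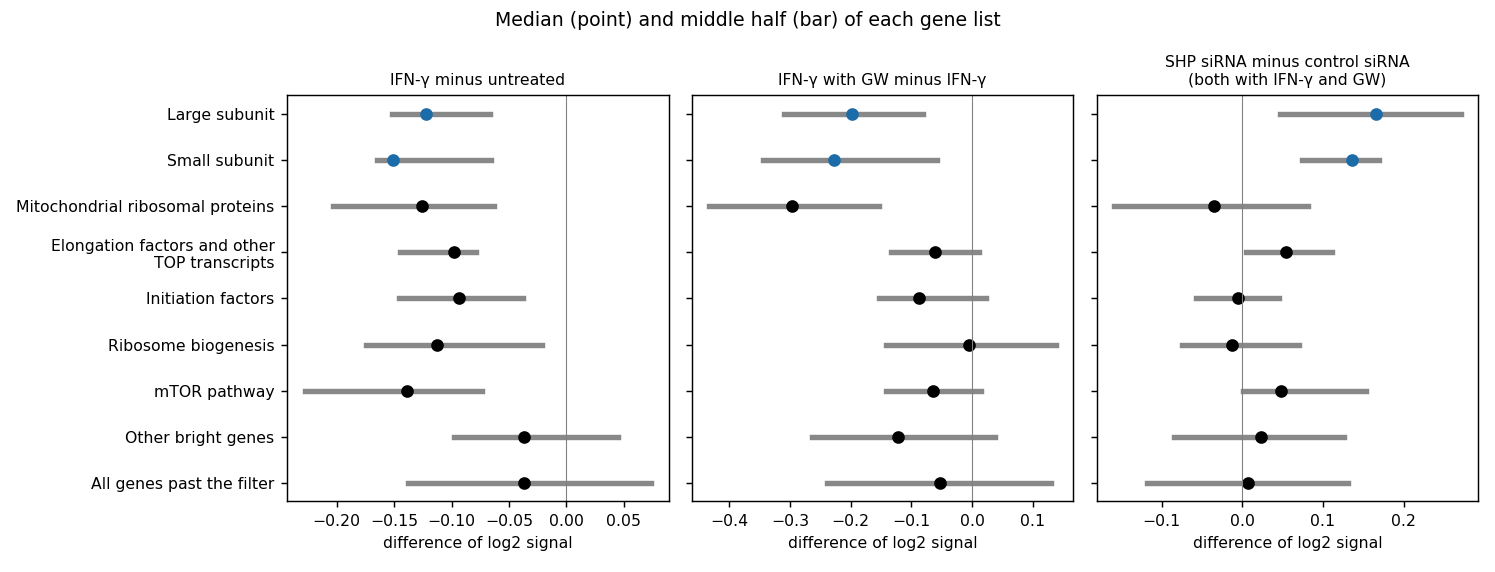
Median difference of log2 signal (points) and interquartile range (bars) for each gene list (vertical axis) in the 3 main comparisons. Cytosolic subunits are in blue. With SHP siRNA they stand at 0.17 and 0.14, and mitochondrial ribosomal proteins at -0.04.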

How the data were processed

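The authors deposited 1 table of 29489 probes by 4 arrays, taken as log2 signal because values run between 1.14 and 13.4. Its log base, unit, background correction and normalization were not given in the sources used here. Per the labels' protocols, RNA was extracted with Trizol and sense cDNA was biotin-labelled. The probe annotation gave 1 symbol to 18511 probes, several to 575 and none to 10403. Symbols were updated through the RefSeq table of GRCr8, which held 18394 of the 18511, and gave 18166 genes. Genes whose highest value reached 5.83 passed the filter (11790). Values below that level may be background, since no detection call was used. With 1 array per group, medians, counts past 1.2-fold and 2-fold and the share of all genes past them were computed, with no test. The members and all gene lists were chosen with earlier results of these data known. Genes are named by rule: per comparison and subunit the 4 highest and 4 lowest members, the members of highest and lowest mean, short role lists in full, up to 4 genes of each longer list per comparison, Nr0b2 and members whose probes disagree in sign by over 0.26. Rpl7a and Rpl18, named with the members of other array order, and list genes such as Larp1, Rack1, Gfap and Mrps6 were chosen after their values were seen. The steps were tested on simulated data. Both limma scalings (quantile, cyclic loess) ran in limma 3.58.1 under R 4.3.3, and other steps in Python 3.11.15, pandas 2.3.3 and numpy 2.4.6.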

Additional observations from a re-analysis of the deposited data

How the results depend on the processing

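No paired analysis was possible because each group had 1 array. The 6 subunit medians kept their sign under all 12 alternatives each (4 scalings, 2 filters, other probe rules, bright members and others). Like the counts, they could not change under the 2 filters, because every member was kept whatever the filter. They ranged between -0.15 and -0.09 (large) and -0.18 and -0.12 (small) for IFN-γ minus untreated, -0.23 and -0.10, and -0.29 and -0.13 for IFN-γ with GW minus IFN-γ, and 0.13 and 0.19, and 0.10 and 0.19 for SHP siRNA minus control siRNA. With a limit of 0.1 on the log2 scale, 1 moved by more: the small subunit median with GW under cyclic loess, -0.13. The large one moved by just less, to -0.10, which is over 1.5 times. Counts depended on the threshold. Lower with IFN-γ (2) became 25 at 1.1-fold and 0 at 1.5-fold, at 2-fold and in bright members, and 1 with the brighter shared probes of Rpl37a and Rps24. Higher with GW (3) became 0 at 1.5-fold and 2-fold and 1 in bright members. Lower with GW (21) became 12 and 11 after centring on genes past the filter and on bright genes, 38 at 1.1-fold, 2 at 1.5-fold, 0 at 2-fold and 9 in bright members. Higher with SHP siRNA (12) became 7 under cyclic loess, 32 at 1.1-fold, 0 at 1.5-fold and 2-fold and 6 in bright members. Lower with SHP siRNA (1) became 2 after either centring and with the lowest probe, 5 at 1.1-fold and 0 at 1.5-fold, 2-fold and in bright members. Of the 11790 filtered genes at 1.1-fold, 2949 were lower with IFN-γ, 4488 lower with GW, 2834 higher and 2622 lower with SHP siRNA. With GW 586 were lower at 1.5-fold. Of 906 other bright genes at 1.2-fold, 39 were lower with IFN-γ, 228 lower with GW and 78 higher with GW. With SHP siRNA 66 of them were higher and 66 lower. After the 2 centrings 15.5% and 15.3% of all genes were lower with GW, and 9.35% were higher with SHP siRNA under cyclic loess. Rpl41 with GW reversed to -0.013 with the mean of probes and to -0.50 with its lowest probe. Bright members, brighter shared probes and every probe counted were alternatives added after seeing the data. The number of members lowest with IFN-γ and GW ranged between 37 and 45. Array signal has no known background here, so the 8 members below the filter are the least certain.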

Other observations

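Probes just outside the symbol rule were read as values. There were 142 probes with a copy or pseudogene symbol of a ribosomal protein gene and 32 with several symbols, of which 70 and 30 reached the filter level. Their median differences were -0.09 and -0.12 for IFN-γ minus untreated, -0.18 and -0.25 for IFN-γ with GW minus IFN-γ, and 0.09 and 0.13 for SHP siRNA minus control siRNA. The array of IFN-γ with GW was the lowest for 46 of 70 and 27 of 30. Copies share sequence with the parent genes, and whether these probes read the same transcripts as the members was not tested. Of the copy or pseudogene probes, Rpl27al5 had 6.11 with SHP siRNA and IFN-γ and GW, 5.08 with IFN-γ and GW, 5.41 with IFN-γ and 5.83 in the untreated culture, a difference of 1.02 with SHP siRNA. Rpl27l2 had 5.16 with SHP siRNA, against 5.86 with control siRNA, a difference of -0.70. Both were picked as the extremes of the 70. Of the 6 Rpl39 probes, 2 held identical values on all 4 arrays.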
